A study of Mus musculus with 4 samples.

Results

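Ccn1, Ccn2, Thbs1, Thbs2, Thbs4 and Spp1 encode secreted matricellular proteins, and their RNA was measured in 4 cultures of p53-/- mouse neural stem cells. The 6 genes are 6 of 22340 genes with a probe on the array. Their probes were taken by gene name, where the files write Cyr61 for Ccn1 and Ctgf for Ccn2, and each gene had 1 probe printed as 1 spot. The genes had been picked with earlier differences between these same 4 arrays in view, so their differences are given as a description and support nothing further.

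Each culture was measured on 1 single-colour array. NSCL61-Ceacam1sh was the NSCL61 line expressing a short hairpin RNA against Ceacam1, a cell adhesion molecule of the immunoglobulin family, and it was set against NSCL61. NSC-Ceacam1L was the p53-/- neural stem cells expressing Ceacam1L, the Ceacam1 form with the long cytoplasmic tail, and it was set against NSC. NSCL61 was also set against NSC. All 4 carry the p53-/- genotype, come from brain of E14.5 embryos and were grown in serum-free medium. Per the labels' protocols, hygromycin was applied for 1 week after the vectors were transfected. The labels do not state whether NSCL61 and NSC received an empty vector, and they give NSCL61 as a cell line only. Effects of vector and hygromycin selection thus cannot be told apart from those of the hairpin or of Ceacam1L. As background not stated in the labels, NSCL61 is known as a glioma-initiating line derived from p53-deficient neural stem cells with oncogenic HRas. The study sought genes that act downstream of Ceacam1.

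Matricellular proteins sit in the extracellular matrix and change how cells read it, without forming its scaffold. CCN1 and CCN2 bind integrins and heparan sulfate proteoglycans, and their genes are textbook targets of the coactivator YAP with its DNA-binding partners, the TEAD factors. Thrombospondin-1 and thrombospondin-2 are secreted by astrocytes, promote the formation of synapses and inhibit the growth of blood vessels, and thrombospondin-1 also activates latent TGF-beta. Thrombospondin-4 belongs to another subgroup of the family, without the inhibition of vessel growth typical of the first subgroup. Spp1 encodes osteopontin, a phosphoprotein that binds integrins and CD44 and is abundant in many gliomas.

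With 1 array per group no test of the groups was possible and no p-value is given. A level is the log2 of the processed signal divided by the array's 75th percentile, so 0 is the level of that percentile. A value after ± is the error that the scanner software models for the spots. It covers technical spread only, as the number of arrays limits the precision. A gene is called seen when its probe is well above background by the software's test, and it was evaluated where it was seen on at least 1 of the 2 arrays compared. A difference of 2-fold or more was counted, as higher or lower, if the gene was seen on the brighter array. The count used dim signals as measured, so a counted gene can have a bound under 2-fold. Where only 1 of the 2 arrays saw it, "at least" gives the bright signal against the higher of the dim signal and the lowest seen signal of the dim array.

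The 75th percentiles were 439 to 571 signal units, and 14009 to 15010 genes were seen per array. No spot was saturated. All 4 arrays shared 1 slide, and each group had a single position on it, so that the effects of position and of group cannot be told apart. No probe was named for Ceacam1. The 1 probe that lists a Ceacam1 transcript, printed for Ceacam2, lay at -4.34 on NSCL61-Ceacam1sh, against -5.00 on NSCL61, -5.01 on NSC-Ceacam1L and -4.94 on NSC, and was seen on the first of these only. The hairpin and the transgene were therefore not checked. Of 6 neural stem cell markers, 6 were seen on NSCL61-Ceacam1sh, 5 on NSCL61 (all but Prom1), 6 on NSC-Ceacam1L and 6 on NSC. Their summed scaled signal was 37.5 on NSCL61-Ceacam1sh, against 418 on NSCL61, 381 on NSC-Ceacam1L and 542 on NSC. The radial glial gene Fabp7 made up 329.5 of the sum on NSCL61, 336 on NSC-Ceacam1L and 477 on NSC. Its level was -4.00 on NSCL61-Ceacam1sh and 8.36 on NSCL61, a difference of -12.4 ± 0.31. In the hairpin comparison 1 marker (Prom1) was higher, 3 were lower, Fabp7 among them, and 2 (Pax6 and Msi1) were not counted, at a median of -0.59.

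The promoters of the 4 members held by the RefSeq promoter table (GRCm38.p6) are shown as a description. Each is the 250 bases before the gene's start, 5′ to 3′ on the gene's strand, with the letters of the motifs found in capitals.
Ccn1 promoter, chr3:145649986-145650235, minus strand: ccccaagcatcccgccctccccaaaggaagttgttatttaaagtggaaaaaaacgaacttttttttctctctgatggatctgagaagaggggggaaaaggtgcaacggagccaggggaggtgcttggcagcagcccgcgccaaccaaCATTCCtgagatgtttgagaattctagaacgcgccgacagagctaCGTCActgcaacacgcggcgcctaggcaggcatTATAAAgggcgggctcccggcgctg
Thbs2 promoter, chr17:14694263-14694512, minus strand: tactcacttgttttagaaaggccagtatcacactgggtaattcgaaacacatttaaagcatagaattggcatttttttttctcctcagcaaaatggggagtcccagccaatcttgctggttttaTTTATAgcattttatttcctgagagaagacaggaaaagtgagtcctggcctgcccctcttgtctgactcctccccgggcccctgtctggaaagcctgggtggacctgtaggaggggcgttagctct
Thbs4 promoter, chr13:92794819-92795068, minus strand: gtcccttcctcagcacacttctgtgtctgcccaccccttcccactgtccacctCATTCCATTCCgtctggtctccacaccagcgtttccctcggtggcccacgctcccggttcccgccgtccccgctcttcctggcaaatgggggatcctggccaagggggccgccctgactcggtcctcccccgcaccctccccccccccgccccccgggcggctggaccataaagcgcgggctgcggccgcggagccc
Spp1 promoter, chr5:104434861-104435110, plus strand: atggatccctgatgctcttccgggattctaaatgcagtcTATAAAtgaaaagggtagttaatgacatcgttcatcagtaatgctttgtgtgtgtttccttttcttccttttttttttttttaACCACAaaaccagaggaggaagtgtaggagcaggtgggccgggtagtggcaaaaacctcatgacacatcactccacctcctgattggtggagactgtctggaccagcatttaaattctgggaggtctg
Both strands were searched for the TEAD motif GGAATG, which reads CATTCC on the other strand, and for the AP-1 motif TGANTCA. The other motifs were the cAMP response half-site TGACG, which reads CGTCA on the other strand, the RUNX motif TGTGGT, which reads ACCACA there, the TATA box TATAAA, which reads TTTATA there, and the CArG box bound by SRF. The Ccn1 promoter holds 1 TEAD motif, at -103 to -98 from the start. It also holds 1 cAMP response half-site at -58 to -54 and a TATA box at -25 to -20. The Thbs4 promoter holds 2 TEAD motifs that share a base, at -197 to -192 and -192 to -187. The Thbs2 window holds only TTTATA, at -126 to -121, and the Spp1 window a RUNX motif at -128 to -123 and TATAAA at -211 to -206. Of 32851 promoters of the table in the same 250 bases, 12.6% hold the TEAD motif, 17.8% the half-site, 14.05% the RUNX motif, 12.4% the TATA box, 6.75% the AP-1 motif and 1.47% the CArG box. The TEAD letters stand in Ccn1, which was counted as higher in each engineered culture. They also stand in Thbs4, which was not counted with Ceacam1L and could not be evaluated with the hairpin. The part of these motifs in the differences was not tested. Ccn2 and Thbs1 were not matched in the table.

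The probes lie on 6 different chromosomes. On mm9, the build of the files, they are at chr3:145310187-145310246 on the minus strand for Ccn1 (A_51_P252859), chr10:24318281-24318340 on the plus strand for Ccn2 (A_51_P157042) and chr2:117952585-117952644 on the plus strand for Thbs1 (A_55_P2017636). That of Thbs4 (A_52_P401504) is at chr13:93521565-93521624 on the minus strand and that of Spp1 (A_55_P2085142) at chr5:104868502-104868561 on the plus strand. The 60 bases of the Thbs2 probe (A_51_P461877) span 1264 bases, chr17:14804526-14805789 on the minus strand, so the probe crosses a splice junction. An exon annotation on mm9 was not used here. The probes of the genes with the widest ranges over the arrays that saw them, Spp1 (6.45) and Thbs2 (6.62), read as follows, all in lower case because no part is marked.
Spp1 probe: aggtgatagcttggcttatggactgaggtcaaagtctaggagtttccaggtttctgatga
Thbs2 probe: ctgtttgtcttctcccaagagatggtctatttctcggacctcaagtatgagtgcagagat

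Ccn1, the CCN protein also known as CYR61, was the only member seen on all 4 arrays. Its level was 5.82 on NSCL61-Ceacam1sh, 2.43 on NSCL61, 4.97 on NSC-Ceacam1L and 1.64 on NSC. In processed signal units these are 30596.7 on NSCL61-Ceacam1sh and 2361.5 on NSCL61, and 17935.9 on NSC-Ceacam1L and 1500 on NSC. Both engineered cultures were thus high and both of their counterparts low. Ccn1 was 10.5-fold higher on NSCL61-Ceacam1sh than on NSCL61 (3.39 ± 0.20) and 10.0-fold higher on NSC-Ceacam1L than on NSC (3.33 ± 0.20). In its direction it ranked 299 of 12961 genes seen on both arrays in the hairpin comparison and 21 of 13809 in the Ceacam1L comparison. NSCL61 exceeded NSC by 0.78 ± 0.20, short of 2-fold. Each step in the order of the 4 levels lay beyond the 95% range of its modelled error. These arrays measured bulk RNA, in which more cells that make a transcript and more transcript per cell cannot be told apart.

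Ccn2, connective tissue growth factor, had the same order of cultures as Ccn1. Its level was 1.77 on NSCL61-Ceacam1sh, -3.04 on NSCL61 and 0.50 on NSC-Ceacam1L, and on NSC it was not well above background (-4.82). It was 28.2-fold higher on NSCL61-Ceacam1sh than on NSCL61 (4.82 ± 0.23) and at least 27.2-fold higher on NSC-Ceacam1L than on NSC. NSCL61 was at least 2.34-fold higher than NSC. Bounds and folds are those of the processed signals. Under normexp background correction, whose added offset draws dim signals together, Ccn2 differed by 3.72 in the hairpin comparison and 3.095 with Ceacam1L, and the count between NSCL61 and NSC was lost, at 0.56.

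None of the other CCN genes was seen on NSC, and only Ccn4 was seen on more than the NSCL61 cultures. Ccn4, also called WISP1 and a target of Wnt signalling, had the order of Thbs2: 2.66 on NSCL61-Ceacam1sh, -1.46 on NSCL61, -2.93 on NSC-Ceacam1L and not well above background on NSC. It was higher on NSCL61-Ceacam1sh than on NSCL61 by 4.12 ± 0.21, at least 2.52-fold higher on NSC-Ceacam1L than on NSC, and at least 6.997-fold higher on NSCL61 than on NSC. Ccn3 was seen on NSCL61-Ceacam1sh only, at least 2.87-fold above NSCL61. Ccn5 was at least 2.62-fold higher on NSCL61 than on NSC, and Ccn6 was seen on no array. Of the 4 other CCN genes, 3 were evaluated in the hairpin comparison and 2 were higher. In the Ceacam1L comparison 1 was evaluated and higher, and between NSCL61 and NSC 2 were evaluated and both were higher.

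**Figure D1:**
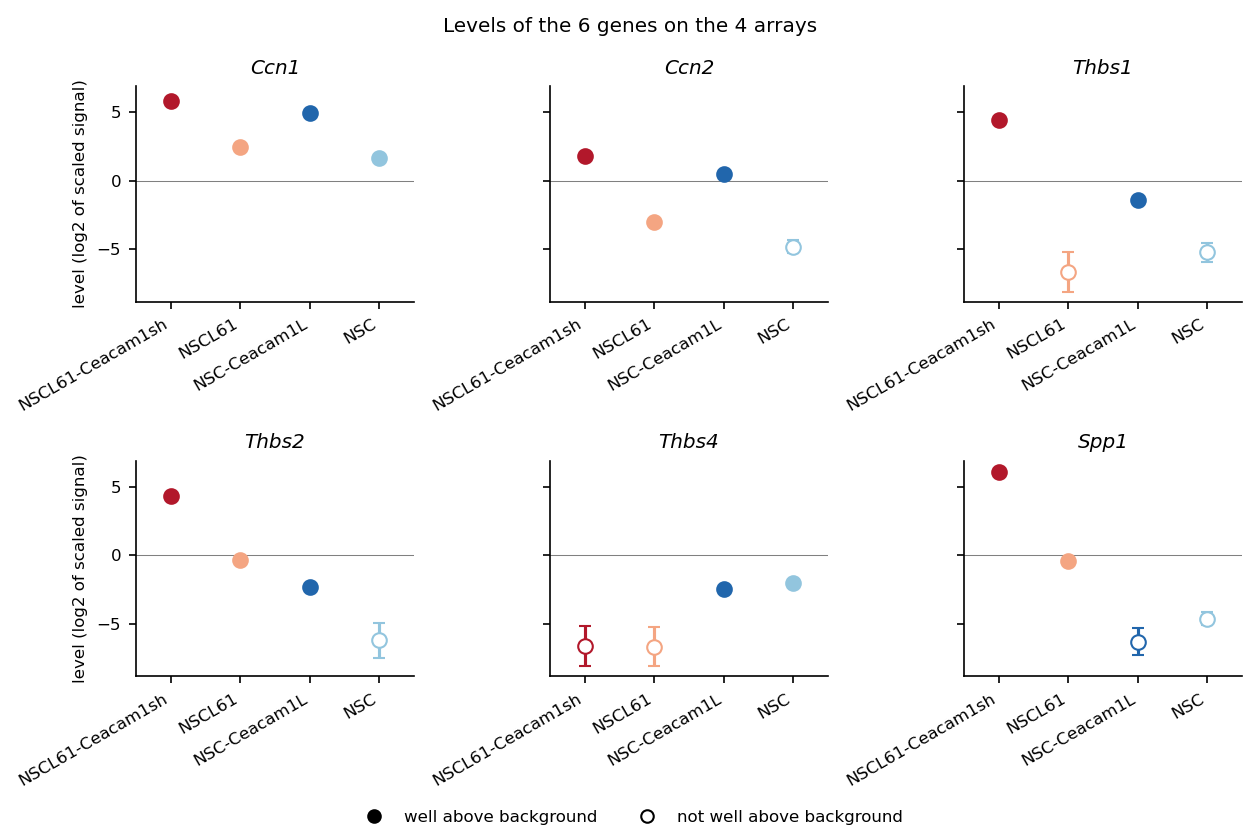
The level of each gene (log2 of scaled signal) on the 4 arrays, with the modelled spot error as a bar and open circles where the probe was not well above background. Ccn1 and Ccn2 stand high on NSCL61-Ceacam1sh and NSC-Ceacam1L, Thbs1, Thbs2 and Spp1 are highest on NSCL61-Ceacam1sh, and Thbs4 is seen on NSC-Ceacam1L and NSC only.

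Thbs1, the thrombospondin that activates latent TGF-beta, was seen in the 2 engineered cultures only. Its level was 4.43 on NSCL61-Ceacam1sh and -1.43 on NSC-Ceacam1L, whereas it was not well above background on NSCL61 (-6.67) or NSC (-5.23). On NSCL61 the software did not find the spot. The signal was 11663.1 units on NSCL61-Ceacam1sh, against 4.31 units on NSCL61, and Thbs1 was at least 540.1-fold higher there. On NSC-Ceacam1L it was at least 7.14-fold higher than on NSC. Under normexp correction Thbs1 differed by 7.19 with the hairpin and 1.49 with Ceacam1L on the log2 scale, each below its bound there (9.08 and 2.84). No fold is given between NSCL61 and NSC, where both signals were dim.

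Thbs2, the other thrombospondin of the first subgroup, formed a gradient over the cultures. Its level was 4.33 on NSCL61-Ceacam1sh, -0.31 on NSCL61 and -2.29 on NSC-Ceacam1L, and on NSC it was not well above background (-6.19). The NSCL61 cultures both lay above the NSC cultures, unlike for Ccn1 and Ccn2, where NSC-Ceacam1L lay above NSCL61. Thbs2 was 24.96-fold higher on NSCL61-Ceacam1sh than on NSCL61 (4.64 ± 0.20), at least 3.94-fold higher on NSC-Ceacam1L than on NSC, and at least 15.5-fold higher on NSCL61 than on NSC. Under normexp correction the difference between NSC-Ceacam1L and NSC was 0.99, just under 2-fold, and that between NSCL61 and NSC was 2.52.

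Thbs4, a thrombospondin of the second subgroup, was the only member counted as lower, and this on NSCL61 against NSC only. It was not well above background on NSCL61-Ceacam1sh (-6.62) or NSCL61 (-6.66), and its level was -2.43 on NSC-Ceacam1L and -2.04 on NSC. The signal was 5.51 units on NSCL61-Ceacam1sh and 4.35 units on NSCL61, each smaller than its modelled error, against 106 units on NSC-Ceacam1L and 117 units on NSC. NSCL61 was at least 6.11-fold lower than NSC, a log2 difference of -1.27 under normexp correction. NSC-Ceacam1L minus NSC was -0.39 ± 0.23, within the 95% range of the modelled error and not counted.

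Of the remaining thrombospondin genes, Thbs3, of the same subgroup as Thbs4, was not counted in any comparison (-0.92 for NSCL61-Ceacam1sh minus NSCL61, 0.42 for NSC-Ceacam1L minus NSC and 0.35 for NSCL61 minus NSC). Comp, the thrombospondin of cartilage, was seen on NSC-Ceacam1L only, at least 1.95-fold above NSC. Of the 5 thrombospondin genes, Thbs1 and Thbs2 were counted as higher in both engineered cultures and Comp with Ceacam1L. Thbs3 was counted in neither, and Thbs4 was not counted with Ceacam1L and could not be evaluated with the hairpin.

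Spp1, osteopontin, was seen in the NSCL61 cultures only. Its level was 6.06 on NSCL61-Ceacam1sh and -0.39 on NSCL61, and it was not well above background on NSC-Ceacam1L (-6.30) or NSC (-4.62). The signal was 36094.5 units on NSCL61-Ceacam1sh and 335 units on NSCL61, against 7.27 units on NSC-Ceacam1L and 19.5 units on NSC. Spp1 was 87.4-fold higher on NSCL61-Ceacam1sh than on NSCL61 (6.45 ± 0.20, rank 36 of 12961 among genes seen on both). It was at least 14.7-fold higher on NSCL61 than on NSC, a log2 difference of 2.32 under normexp correction. No fold is given between NSC-Ceacam1L and NSC, where both were dim, so Spp1 was the member that was counted with the hairpin and not with Ceacam1L.

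**Figure D2:**
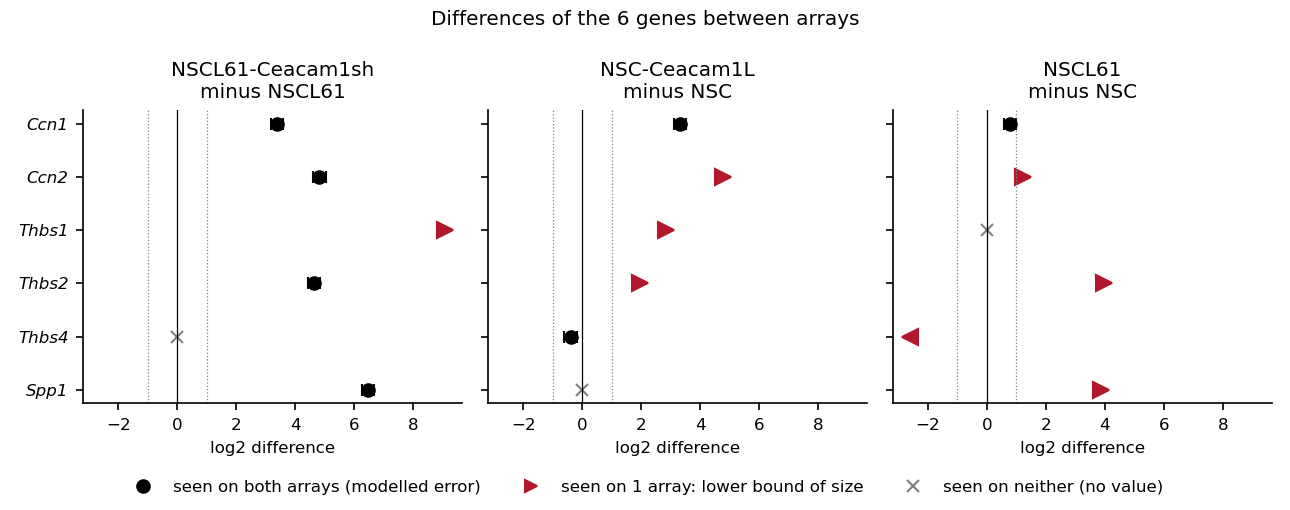
The log2 difference of each gene in the 3 comparisons, with black points and modelled errors where both arrays saw the gene, red triangles at the lower bound of the size where 1 array saw it, and grey crosses where neither did. Dotted lines mark 2-fold, and the only member counted as lower is Thbs4 on NSCL61 against NSC.

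Across the members, 5 of 6 were evaluated in the hairpin comparison and 5 were higher, where 23.5% of the 15620 genes evaluated were higher and 24.2% lower. In the Ceacam1L comparison 5 were evaluated, 4 were higher and 0 lower, where 10.5% of 15313 genes were higher and 6.05% lower. Between NSCL61 and NSC 5 were evaluated, 3 were higher and 1 lower, where 14.4% of 15299 genes were higher and 14% lower. Nothing is read from these shares, because the members were picked on these contrasts. The median difference of the evaluated members was 4.82 in the hairpin comparison, against 0.01 for all evaluated genes. It was 3.80 with Ceacam1L (2.84 when a gene that 1 array saw is set to its bound), against -0.10 for all genes. Between NSCL61 and NSC it was 1.78 (1.23 with bounds), against 0.03. The Ceacam1L and NSCL61 comparisons share the NSC array, and the hairpin and NSCL61 comparisons share the NSCL61 array.

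**Figure D3:**
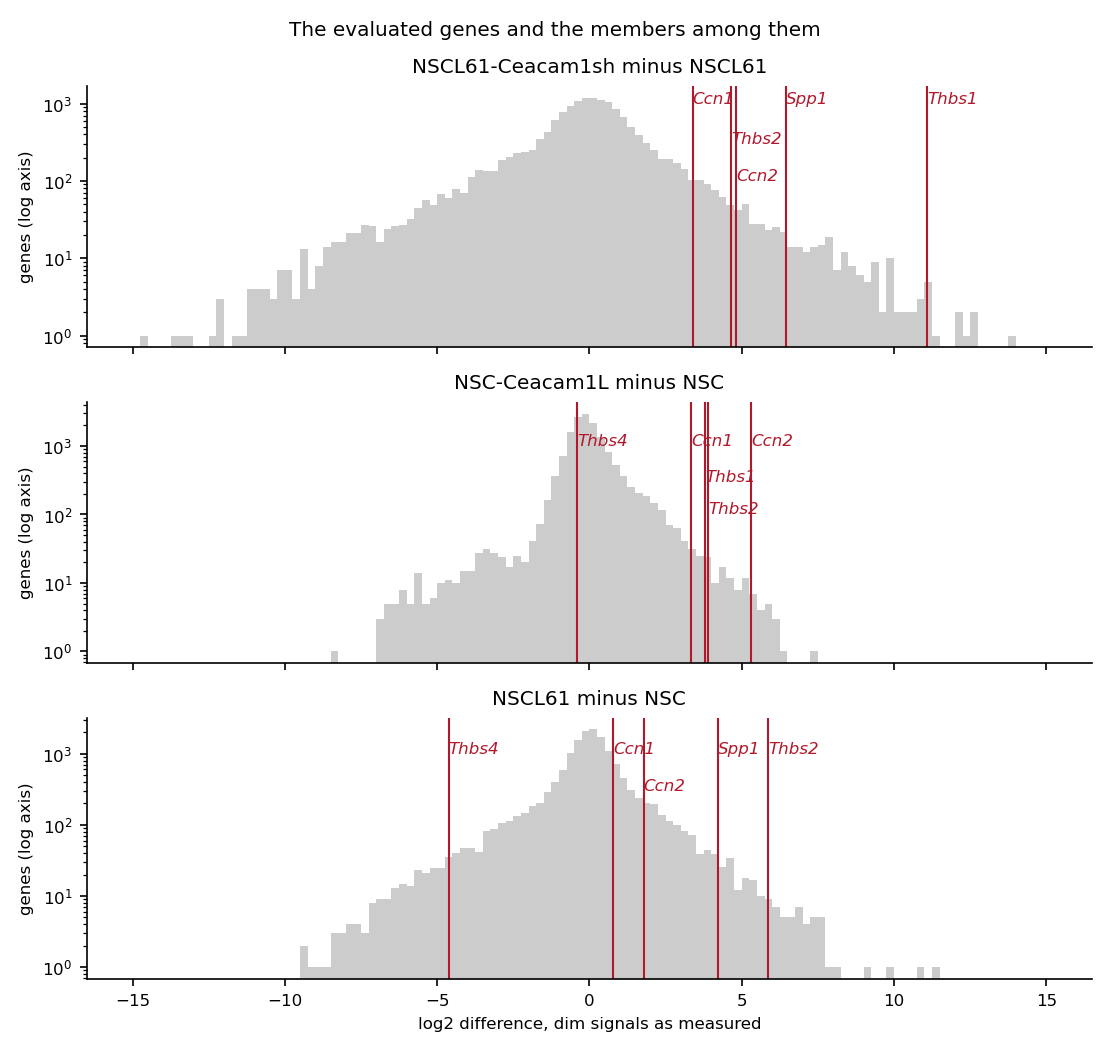
The number of evaluated genes (log axis) by log2 difference in each comparison, with dim signals as measured and the evaluated members as red lines. In the hairpin comparison the 5 members lie between 3.39 and 11.10, and in the Ceacam1L comparison Thbs4 lies near 0 while the other 4 lie between 3.33 and 5.32.

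Each list count is to be set beside the shares over all evaluated genes. These were 23.5% higher and 24.2% lower with the hairpin, and 10.5% and 6.05% with Ceacam1L. Between NSCL61 and NSC they were 14.4% and 14%. Genes whose products bind the members' proteins were counted in both directions. Of 24 receptors of CCN, thrombospondin and osteopontin proteins, 23 were evaluated in the hairpin comparison, of which 7 were higher and 5 lower (median 0.31). Itga3, the integrin alpha chain that binds thrombospondin-1, stood at 2.81 on NSCL61-Ceacam1sh and -3.13 on NSCL61, a difference of 5.95 ± 0.24. Integrin chains of RGD-binding receptors went both ways, with Itgb3 higher by at least 34.9-fold and Itga8 by at least 5.75-fold. Itgb8, another of these chains, which activates latent TGF-beta, was at least 57.1-fold lower. Itga9, an osteopontin receptor chain, was lower (-3.64 ± 0.34) and Cd36, a thrombospondin receptor, was at least 2.58-fold lower.

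With Ceacam1L, 5 of 23 receptors were higher and 3 lower (median -0.23), among them Itgb5 (1.39 ± 0.20), which pairs with the alpha v integrin, and Itgb6, at least 4.71-fold lower. Of those counted as higher, Itga3 (at least 1.18-fold) and Cd36 (at least 1.25-fold) were not seen on NSC, and their bounds fell short of 2-fold. Between NSCL61 and NSC, 8 of 23 were higher and 2 lower (median 0.54). Cd44, the hyaluronan receptor that also binds osteopontin, was higher by 3.03 ± 0.20, while Itgb3 was at least 6.999-fold lower and Itgb6 at least 4.08-fold lower.

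Among 22 other genes known as targets of YAP and TEAD, all 22 were evaluated in the hairpin comparison, with 13 counted as higher and 4 as lower, at a median of 1.30 (1.11 with bounds). Ankrd1, a muscle ankyrin repeat protein gene often read as a YAP target beside Ccn1 and Ccn2, was at least 146-fold higher and was seen on NSCL61-Ceacam1sh only. The guanine exchange factor gene Dock5 (3.97 ± 0.22), the IGF carrier Igfbp3 (3.27 ± 0.20) and the phosphatase Ptpn14 (2.84 ± 0.25), which itself restrains YAP, were higher, and Ccdc80 was lower (-2.92 ± 0.20). With Ceacam1L, 5 of 19 were higher and 2 lower (median 0.47): Ccdc80 was higher by 2.27 ± 0.23, and Igfbp3 was lower (-1.40 ± 0.20). Ankrd1 was seen on neither of those 2 arrays. Between NSCL61 and NSC, 8 of 20 were higher and 2 lower (median 0.57), with Ccdc80 at 5.14 ± 0.23 and the BMP-binding membrane protein gene Crim1 at 3.83 ± 0.22. Ccdc80, Igfbp3 and the TGF-beta ligand gene Tgfb2 (1.58 ± 0.20 with Ceacam1L and -1.82 ± 0.20 with the hairpin) were counted in opposite directions in these 2 comparisons. Dock5 (1.08 ± 0.28 with Ceacam1L) and the receptor kinase gene Axl (2.20 ± 0.20 with the hairpin and 1.20 ± 0.20 with Ceacam1L) were higher in both, as Ccn1 and Ccn2 were. Tgfb2 and Axl were set side by side here after their values were seen.

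The Hippo list holds the kinases upstream of YAP, YAP itself, the TEAD factors and their cofactors. With Ceacam1L, 0 of 13 evaluated genes passed 2-fold in either direction (median -0.07). In the hairpin comparison 3 of 15 were higher and 1 lower (median 0.55), where 23.5% of all evaluated genes were higher and 24.2% lower. The TEAD factor gene Tead4 was at least 31.2-fold higher and was seen on NSCL61-Ceacam1sh only, Tead1 was higher by 1.32 ± 0.20, and the TEAD cofactor gene Vgll4 was lower (-1.59 ± 0.20). For NSCL61 against NSC, 3 of 13 were higher and 0 lower (median -0.28), with the Hippo kinase genes Stk3 at 1.26 ± 0.20 and Lats1 at 1.11 ± 0.21.

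SRF with its MRTF coactivators also drives CCN genes and actin cytoskeleton genes. Of 12 evaluated genes of that list, 5 were higher and 2 lower in the hairpin comparison (median 0.70), 4 were higher and 1 lower with Ceacam1L (median 0.33), and 4 were higher and 1 lower between NSCL61 and NSC (median 0.52). The smooth muscle actin gene Acta2 was higher in all 3 comparisons, by 2.03 ± 0.06 with the hairpin, 2.28 ± 0.06 with Ceacam1L and 1.51 ± 0.06 on NSCL61 against NSC. The calponin gene Cnn1 was lower with the hairpin (-8.69 ± 0.31) and higher with Ceacam1L (1.79 ± 0.25), and Myl9, a myosin light chain gene, was likewise lower with the hairpin (-2.61 ± 0.20) and higher with Ceacam1L (1.89 ± 0.20). Filip1l went the reverse way, higher with the hairpin (3.61 ± 0.21) and lower with Ceacam1L (-1.07 ± 0.24).

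Thrombospondin-1 acts on latent TGF-beta, and genes of that system were higher in the hairpin comparison in 8 of 15 cases and lower in 1 (median 1.58). The lower gene, Ltbp4, had probes that went opposite ways, and without it 8 of 14 were higher and 0 lower (median 1.76). Lrrc32, which docks latent TGF-beta at the cell surface, was higher by 4.60 ± 0.27, the feedback inhibitor Smad7 by 3.25 ± 0.21 and the receptor Tgfbr2 by 2.58 ± 0.20 (0.82 on its other probe, short of 2-fold). With Ceacam1L, 0 of 13 were higher and 1 lower, which was Lrrc32 (-1.17 ± 0.21), and the median was -0.08. On NSCL61 against NSC, 8 of 15 were counted as higher and 1 as lower, at a median of 1.08 (0.94 with bounds), or 7 of 14 and 1 without Ltbp4. Ltbp1, a latent TGF-beta binding protein gene, was higher by 2.70 ± 0.21 and Tgfb1 at least 6.23-fold, and Lrrc32 was lower (-3.87 ± 0.27).

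Of 10 genes of proteases that cut thrombospondins or osteopontin, 6 were evaluated in the hairpin comparison, with 4 counted as higher and 1 as lower, at a median of 2.26 (1.25 with bounds). Mmp3, stromelysin-1, was at least 1691-fold higher and was seen on NSCL61-Ceacam1sh only, Mmp2 was higher by 3.997 ± 0.29, and Mmp12, the macrophage elastase, was at least 13.99-fold lower. With Ceacam1L, 2 of 3 were higher, Mmp14 by 1.02 ± 0.21 and Mmp2 at least 1.04-fold. On NSCL61 against NSC, 3 of 4 were higher, with Mmp12 at least 10.0-fold higher. Mmp3, like Spp1, was dim on both NSC arrays.

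**Figure D4:**
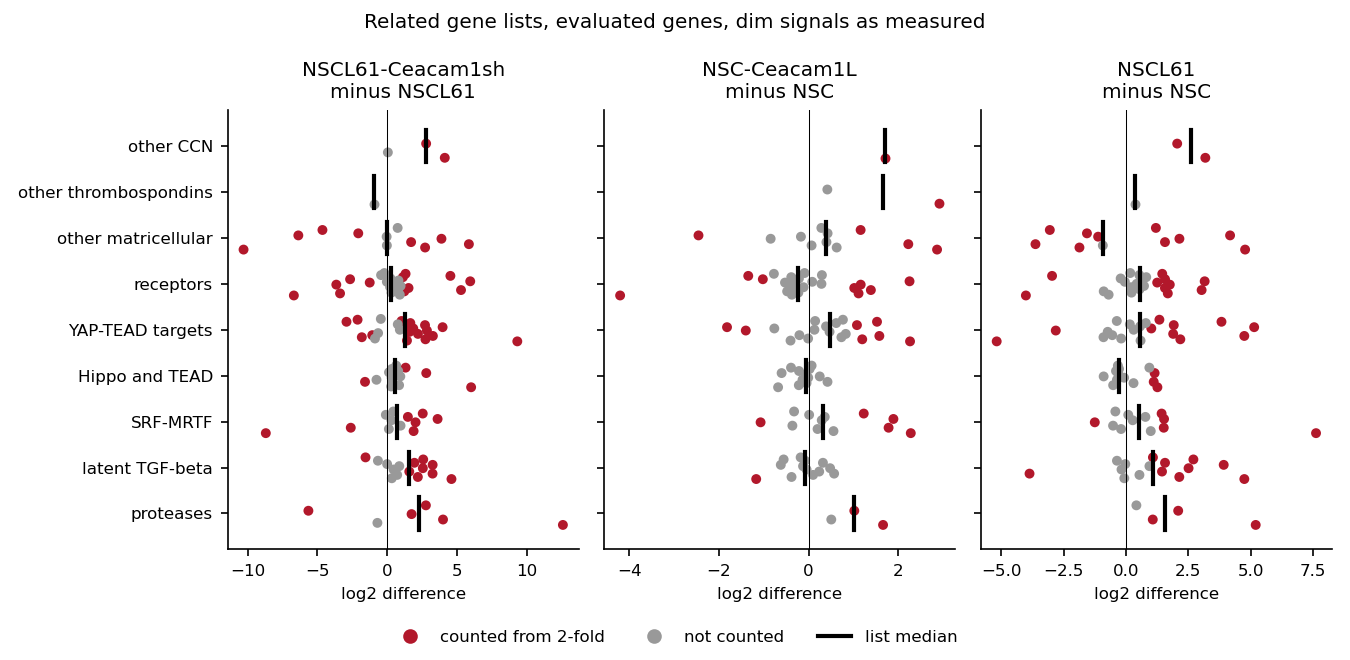
The log2 difference of every evaluated gene in 9 related lists, with dim signals as measured, red points for genes counted from 2-fold, grey points for the others and black bars at the list medians. The latent TGF-beta list has a median of 1.58 in the hairpin comparison and -0.08 in the Ceacam1L comparison.

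The list of other matricellular genes holds 15. In the hairpin comparison 4 of 11 were higher and 4 lower (median -0.02). Fbln5, the elastic fibre protein fibulin-5, was higher by 5.85 ± 0.29 and the calcium-binding matrix protein gene Smoc2 by 3.88 ± 0.20. Smoc1 was at least 316-fold lower, and the astrocyte protein gene Sparcl1 was lower (-6.36 ± 0.22). With Ceacam1L, 3 of 11 were higher and 1 lower (median 0.40), with Fbln5 at 2.87 ± 0.24, Sparc at 1.16 ± 0.20, Smoc2 at least 4.21-fold higher and the tenascin gene Tnc lower (-2.46 ± 0.21). On NSCL61 against NSC, 5 were higher and 5 lower (median -0.93), with Smoc2 at least 24.7-fold higher and Tgfbi at 4.17 ± 0.35.

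The genes most like a member were taken as those with the smallest Euclidean distance between centred log2 levels over the arrays that saw the member, among genes seen on exactly the same arrays. For Ccn1, over 4 arrays and 12473 candidates, these were the membrane protein gene Emp2 (0.80), the metalloprotease gene Mmp11 (0.85) and Fah, of tyrosine breakdown (0.88). The distance of Mmp11 is that of its brightest probe, which differed by 3.52 in the hairpin comparison, against 1.94 on its other probe. For Ccn2, over 3 arrays and 296 candidates, Traf1, a TNF receptor adaptor gene, stood at 0.63, well ahead of the integrin gene Itgb7 (1.48) and Ndst3, of heparan sulfate synthesis (1.49). Traf1 had levels of 0.57 on NSCL61-Ceacam1sh, -3.51 on NSCL61 and 0.09 on NSC-Ceacam1L. For Thbs2, again over 3 arrays and 296 candidates, the nearest were Smoc2 (0.56), the cytokine gene Il11 (0.65) and Ccn4 (0.73). Thbs1, Thbs4 and Spp1 were seen on 2 arrays each, too few for such a ranking.

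**Figure D5:**
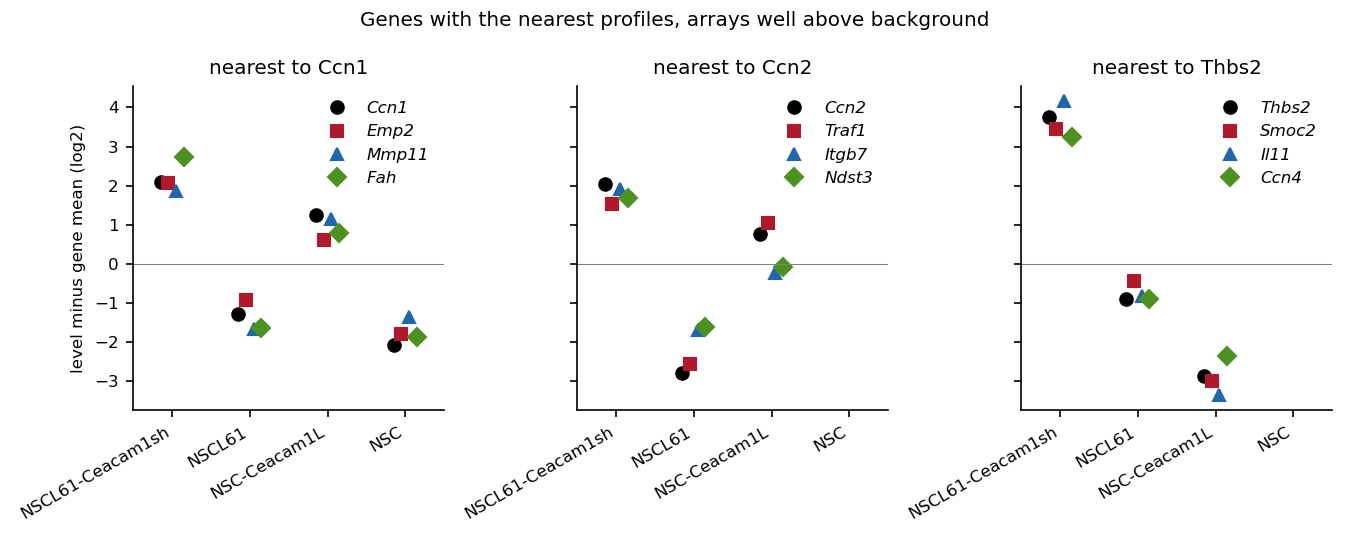
Levels of Ccn1, Ccn2 and Thbs2 and of the 3 genes nearest to each, centred on each gene's mean over the arrays that saw it (log2). Smoc2, Il11 and Ccn4 share the gradient of Thbs2 over NSCL61-Ceacam1sh, NSCL61 and NSC-Ceacam1L.

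Among protein-coding genes with a probe, Smoc2 is also next to Thbs2 on chromosome 17 in the RefSeq table (GRCm38.p6), which was looked up after the values were seen. Its level was 4.24 on NSCL61-Ceacam1sh, 0.36 on NSCL61 and -2.19 on NSC-Ceacam1L, and it was not well above background on NSC (-4.42). It was counted as higher in all 3 comparisons, as Thbs2 was. The gene on the other side of Thbs2, Wdr27, was at least 2.02-fold lower with the hairpin. Of the 12 genes next to the 6 members, 11 were evaluated in the hairpin comparison, of which 3 were higher and 3 lower. Over all evaluated genes 23.5% were higher there and 24.2% lower. With Ceacam1L, Smoc2 was the 1 higher gene of 11, with 0 lower, and between NSCL61 and NSC 2 of 10 were higher and 1 lower. Next to Spp1, neither Mepe nor Pkd2 passed 2-fold in any comparison.

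Markers of other cell types differed in the same comparisons. Of 8 fibroblast markers, 6 were seen on NSCL61-Ceacam1sh (all but Lum and Thy1), with a summed scaled signal of 23.7, against 5 and 3.42 on NSCL61, 5 and 19.2 on NSC-Ceacam1L, and 4 and 5.15 on NSC. Different genes led these sums. Dcn made up 9.90 on NSCL61-Ceacam1sh and Thy1 13.04 on NSC-Ceacam1L, while Pdgfra made up 3.06 on NSCL61 and 2.87 on NSC. In the hairpin comparison 5 of 7 were higher and 1 lower (median 5.14), with the proteoglycan gene Dcn at least 248-fold higher and the collagen gene Col1a2 at 5.14 ± 0.23. The lower gene was Thy1, by at least 2.92-fold. With Ceacam1L, Thy1 (2.71 ± 0.20) and Pdgfrb (at least 3.06-fold) were higher of 5 evaluated, and the collagen genes Col1a1 and Col1a2 were not counted. On NSCL61 against NSC, 1 of 5 was higher and 2 were lower (median 0.09). Thy1 (-4.20 ± 0.24) and Col1a1 (-1.86 ± 0.36) were lower there, and the collagen gene Col3a1 was at least 1.41-fold higher.

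Of 8 astrocyte markers, 6 were seen on NSCL61-Ceacam1sh (all but Gfap and Slc1a2), with a sum of 4.50, against 8 on each other array, with sums of 1036 on NSCL61, 1023 on NSC-Ceacam1L and 416 on NSC. In the hairpin comparison 8 of 8 were lower (median -7.45), whereas with Ceacam1L 5 were higher and 0 lower (median 1.96). Ccn1, Ccn2, Thbs1 and Thbs2 were higher in both. The part of the fibroblast and astrocyte markers in the members' differences was not tested.

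Microglia markers Aif1, Ptprc, Tyrobp and C1qa were seen on no array, and 2 to 4 of the 8 microglia and macrophage markers were seen per array. Their sum was 12.04 on NSCL61-Ceacam1sh, against 26.7 on NSCL61, 26.5 on NSC-Ceacam1L and 21.1 on NSC. Of this, the integrin gene Itgam made up 9.39 on NSCL61-Ceacam1sh, 22.7 on NSCL61, 23.9 on NSC-Ceacam1L and 17.6 on NSC, and its probes differed by -1.27 to -0.12 in the hairpin comparison. Of 4 markers of megakaryocytes and platelets, cells rich in thrombospondin-1, Pf4, Ppbp and Gp9 were seen on no array. The integrin gene Itga2b was seen on NSCL61 (-0.65) and NSC-Ceacam1L (-3.73) only. It was at least 17.2-fold lower with the hairpin, at least 1.46-fold higher with Ceacam1L and at least 12.3-fold higher on NSCL61 than on NSC. Of 6 endothelial markers, 2 to 4 were seen per array, with a sum of 8.55 on NSCL61-Ceacam1sh, against 14.4 on NSCL61, 8.95 on NSC-Ceacam1L and 10.9 on NSC, nearly all of it the receptor gene Kdr, and Tek and Cldn5 were seen on none.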

How the data were processed

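Total RNA of 4 cultures was read on 4 Agilent single-colour mouse arrays (design 028005), 1 per group, as given by the sample titles. The deposited intensity values, background-subtracted and detrended processed signals, came, per the file headers, from protocol GE1_107_Sep09 of Agilent Feature Extraction 10.7.3.1. The submitters' processing notes give version 9.1. For NSC, the deposited file holds signals of at most 3 significant digits. The authors' deposited table of log2 values was used as an alternative. Its differences matched those of the scanner signals before scaling (slopes of 1.00), with offsets of -0.27 in the hairpin comparison, -0.22 in the Ceacam1L comparison and 0.14 in that of NSCL61 with NSC. It lay closer to the scaled differences reported here: for Ccn1 it gave 3.43 with the hairpin and 3.36 with Ceacam1L, against 3.39 and 3.33. Its column medians were 0.03 for NSCL61-Ceacam1sh, 0.00 for NSCL61, -0.20 for NSC-Ceacam1L and 0.25 for NSC, so scale and direction are settled and its centring is unknown.

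Control spots (59305 of 62976 were kept) and 143 to 187 outlier spots per array were left out, signals were divided by the 75th percentile and taken to log2, and spots of a probe were averaged. RefSeq's gene table (GRCm38.p6) named probes through accessions (27325 of 55681), by symbol (3523) or older symbol (551), and of several probes of a gene the brightest was used. For Ltbp4 probes disagreed in direction. Its call is that of its brightest probe, and the hairpin and NSCL61 counts of its list are given with and without it. Python 3.11.15, pandas 2.3.3, limma 3.58.1 and R 4.3.3 were used, the last 2 for the alternatives, and the counting was tested on simulated data.

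The 3 comparisons carried no test. The members and the gene lists were chosen with earlier results of these data known. Named beside the members are the genes of the CCN and thrombospondin lists, up to 6 genes with the largest differences of each other list, and the 3 nearest genes of each ranked member. A gene that the rule would name is not reported here. Other scalings, a background correction, the deposited log2 table, no filter on dim probes, the mean of all probes and a 1.5-fold threshold were tried.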

Additional observations from a re-analysis of the deposited data

How the results depend on the processing

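The 6 genes kept their direction in all 3 comparisons and under all 8 alternatives wherever they were counted. Of 144 values of member differences under alternatives, 115 stayed within 1 modelled error of the value reported, 29 moved and 0 counted differences reversed. Part of this tally was fixed in advance. Dropping the filter on dim probes changes counts but no difference, and averaging all probes changes nothing where a member has 1 probe. The deposited log2 table holds the same signals up to an offset. The uncounted Thbs4 difference between the NSCL61 arrays, where it was dim on both, was 0.04 as reported and -0.45 under normexp correction. Normexp correction, which adds an offset of 50 and so draws dim signals together, gave member medians of 4.39 for NSCL61-Ceacam1sh minus NSCL61, 1.49 for NSC-Ceacam1L minus NSC and 0.76 for NSCL61 minus NSC, and 2 counts were lost, Thbs2 with Ceacam1L (0.99) and Ccn2 on NSCL61 against NSC (0.56). It left 1264 genes past 2-fold with Ceacam1L and 2767 on NSCL61 against NSC, and a 1.5-fold threshold gave 5197 and 6920. Median scaling and spike-in scaling gave hairpin medians of 5.24 and 5.26. Without the filter on dim probes, 1 member was lower with Ceacam1L (Spp1) and 2 on NSCL61 against NSC (Thbs1 beside Thbs4).

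Median and spike-in scaling shift all genes of an array alike, and cyclic loess does not. In the hairpin comparison, median scaling set the median of all genes to 0.43 and the higher share of calls to 64.5%, and spike-in scaling to 0.46 and 65.4%, against 49.2% as reported. With Ceacam1L, cyclic loess gave a share of 76.4% and a median of 0.12, and spike-in scaling 84.4% and 0.28, against 63.4%. The share between NSCL61 and NSC was 40.1% under spike-in scaling, against 50.7%, with a median of -0.19. No paired analysis was possible because each group holds 1 array. Signals near background limit Thbs1, Thbs4 and Spp1, each seen on 2 of 4 arrays, and Ccn2 and Thbs2, not seen on NSC.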
